A study of Rattus norvegicus with 6 samples.

Results

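The inflammasome and pyroptosis genes described here are 10 genes chosen by symbol from the 30562 genes of a table of read counts from rat intervertebral discs. They comprise the sensors Nlrp3, Nlrc4 and Aim2, the adaptor Pycard, the caspases Casp1 and Casp4, the gasdermins Gsdmd and Gsdme, the cytokine Il18 and its secreted inhibitor Il18bp. Each symbol matched 1 gene of the table. An inflammasome is a cytosolic complex in which a sensor recruits the adaptor encoded by Pycard and activates the protease encoded by Casp1. That protease cleaves the precursors of the cytokines encoded by Il1b and Il18, and it frees the pore-forming end of gasdermin D, whose pores cause the lytic cell death called pyroptosis. In degenerating discs this pathway has been studied in infiltrating macrophages and in the resident disc cells, and much of its control acts on proteins, which RNA counts do not measure.

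Bulk RNA was measured in 3 libraries labelled control and 3 labelled treated with AF-PTK@LEV@SPP1, all of genotype WT. By the study's methods, 12-week-old male Sprague-Dawley rats had a tail disc punctured with a needle, and both groups share this injury. Controls received PBS in the disc. The other group received 10 μL of AF-PTK@LEV@SPP1 with 1 mg/kg of siRNA, first given 24 h after surgery, and treatment ran for 8 weeks. AF-PTK@LEV@SPP1 is a vesicle made by fusing liposomes with outer membrane vesicles of an attenuated Escherichia coli strain. It carries an siRNA against Spp1 and displays a peptide that targets the annulus fibrosus, attached by a linker that reactive oxygen species cleave. No library of the vesicle without this siRNA was analysed here, so effects of the vesicle and of the siRNA cannot be told apart. The sample records differ from the methods: they name an untreated control, 14 days of treatment and macrophages sorted with F4/80 and CD11b from mice.

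The disc genes Col1a1, Col2a1, Acan, Sox9, Comp, Tbxt and Scx were counted in every library. Their summed level was 49632, 73751 and 73947 CPM (counts relative to the library total, scaled by edgeR's trimmed mean of M-values) in control libraries 1 to 3. It was 100681, 71532 and 92943 CPM in the libraries labelled treated 1 to 3. Col1a1 was the most abundant. Matrix genes of disc cells, which macrophages are not known to produce at such levels, were thus counted in all 6 libraries, and this goes against the sorted macrophages of the sample records.

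The methods describe 3 animals per group. The control libraries held 17942989, 16565291 and 17489851 counts, and the libraries labelled treated held 17074981, 15560728 and 17855184. Control libraries 2 and 3 were nearly the same. Over 14393 genes their counts gave a chi-square of 1.33 per gene, and 16 genes (0.111%) differed. The other 5 pairs within a group gave 51.3 to 107 per gene, with 39.6% to 56.6% of genes differing. These libraries were therefore summed and counted as 1 sample, which left 2 control samples and 3 samples labelled treated. Means ± SD below are over those samples (n = 2 and n = 3), and a two-sided exact permutation test on them cannot give a p under 0.1. Results of a fit on all 6 libraries are given where they differ.

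Spp1, the target of the siRNA, stood at 8114, 4408 and 4414 CPM in control libraries 1 to 3. It stood at 8047, 6893 and 8451 CPM in the libraries labelled treated. The groups overlapped, and the lowest level lay in the control pair. The edgeR log2 fold change, here and below of the libraries labelled treated over control, was 0.31 (SE 0.37, adjusted p = 0.628), and 0.81 without control 1. A lower Spp1 level in the treated group, which would have checked the labels, was therefore not detected, and each direction below rests on the labels as given. The methods describe the siRNA as directed at the mouse gene, and its match to the rat transcript was not analysed here. The table's column names do not spell out the control label: columns named for the disc were taken as control because the other columns abbreviate the treatment.

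All 10 genes had enough counts to be tested, and edgeR called 0 of 10 at an adjusted p under 0.05. Over all 15537 genes tested the same rule called 575 (3.70%), of which 175 (1.13%) were higher and 400 (2.57%) lower. At an unadjusted p under 0.05, 1 of the 10 passed, Casp4, against 3941 genes overall (25.4%). With limma-voom 0 of 10 were called, against 2.92% of all genes. On a single set of simulated counts with 200 genes changed 4-fold, the share of false calls was above the threshold for edgeR and limma-voom. It was far above it for DESeq2. That share depends on how many genes change, so it does not measure the share of false calls here. DESeq2 called 1 of 10, against 16.6%, and edgeR on the 6 libraries called 1 of 10, against 18.1%. In both cases the gene was Casp4, with a lower level. Fitted log2 fold changes were above 0 for 5 genes and below 0 for 5, with a median of −0.05, beside 0.05 over all genes tested. The levels of 1 of the 10, Casp4, did not overlap between the groups over 6 libraries, whereas 41.9% of all genes tested did not overlap and 20.1% were lower without overlap.

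**Figure D1:**
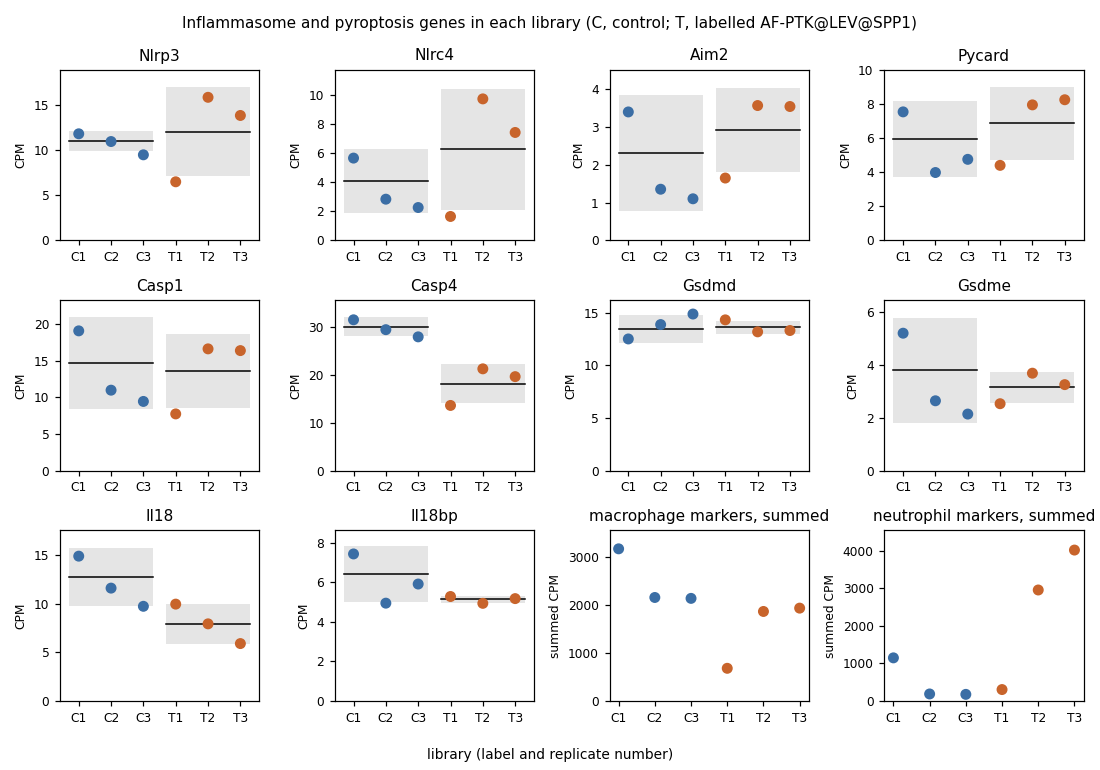
Level of each gene in each library in CPM, with C1 to C3 the control libraries and T1 to T3 those labelled AF-PTK@LEV@SPP1; lines are group means and grey bands ± 1 SD over distinct samples, with C2 and C3 counted as 1. Casp4 is the gene whose groups do not overlap over 6 libraries, from 27.9 to 31.5 CPM in control and from 13.6 to 21.3 CPM in the libraries labelled treated; the last panels give the summed CPM of the macrophage and neutrophil markers.

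Among the sensors, Nlrp3, which responds to many signals of cell stress and damage, was at 11.9, 11.0 and 9.52 CPM in control libraries 1 to 3. It was at 6.52, 15.9 and 13.9 CPM in the libraries labelled treated. Treated 1 lay below every control library and treated 2 and 3 lay above every one, so the groups overlapped and the spread lay mainly within the treated label. The log2 fold change was 0.12 (SE 0.39, edgeR adjusted p = 0.867), with a 95% interval of the fold from 0.547 to 2.17, and it became −0.12 without treated 2.

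Nlrc4, the platform for bacterial proteins recognized by the Naip receptors, was at 5.64, 2.83 and 2.26 CPM in control. In the libraries labelled treated it was at 1.64, 9.70 and 7.40 CPM. The lowest and the highest library both carried the treated label. The log2 fold change of 0.61 had an SE of 0.78 and a 95% interval of the fold from 0.388 to 6.02, the widest among the 10 genes, and did not pass the test (edgeR adjusted p = 0.655). With 1 library left out, this fold change was 1.28 without control 1 and 0.15 without treated 2. Naip6, a receptor of that pathway named after its values were seen, was likewise lowest in treated 1, at 1.29 CPM, beside 8.31 and 6.72 in treated 2 and 3 and 10.5, 5.72 and 5.61 in control. Aim2, a sensor of cytosolic DNA, was at 3.39, 1.35 and 1.10 CPM in control and 1.64, 3.55 and 3.53 CPM in the libraries labelled treated. These levels rest on 18 to 66 counts a library. Levels overlapped between the groups, and the log2 fold change was 0.34 (SE 0.58, edgeR adjusted p = 0.742), and 1.23 without control 1.

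Pycard, whose protein links the sensors to caspase-1, was at 7.54, 3.99 and 4.76 CPM in control libraries and at 4.41, 7.95 and 8.25 CPM in those labelled treated. Control 1 was close to treated 2 and 3, and the control pair was close to treated 1. Its log2 fold change was 0.20 (SE 0.39, edgeR adjusted p = 0.772). For Casp1, the effector protease of the canonical inflammasome, control libraries gave 19.1, 11.0 and 9.46 CPM. The libraries labelled treated gave 7.75, 16.6 and 16.4 CPM. The highest level was in control 1 and the lowest in treated 1, and the groups overlapped. The means were 14.7 ± 6.27 CPM (SD, n = 2) and 13.6 ± 5.06 CPM (SD, n = 3). For Casp1 the log2 fold change was −0.11 (SE 0.43, edgeR adjusted p = 0.894), and it was 0.043 on the 6 libraries, 0.40 without control 1 and 0.14 without treated 1.

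Casp4, the rodent receptor and protease for cytosolic lipopolysaccharide in the non-canonical pathway, formerly named Casp11, was at 31.5, 29.4 and 27.9 CPM in control. In the libraries labelled treated it was at 13.6, 21.3 and 19.6 CPM. All 3 of these libraries lay below all 3 control libraries, with treated 1 the lowest. The means were 30.1 ± 1.99 CPM (SD, n = 2) and 18.2 ± 4.02 CPM (SD, n = 3), and the exact permutation p was 0.1, the smallest this design allows. This gave a log2 fold change of −0.73 (SE 0.21), a fold of 0.601 with a 95% interval from 0.414 to 0.872. It did not pass the test on distinct samples (edgeR adjusted p = 0.119). It passed on the 6 libraries as deposited (−0.70, edgeR adjusted p = 0.0421) and with DESeq2 on the distinct samples (−0.76, DESeq2 adjusted p = 0.0273). Over 14 alternatives the adjusted p from edgeR, DESeq2 or limma-voom ranged from 0.0273 to 0.267.

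In the table Casp1 lies on chromosome 8 from 2587831 to 2597383, Casp4 from 2598876 to 2635092 and Casp12 from 2642434 to 2674037, all on the plus strand. The genome build of these coordinates is not given in the sources used here, since the records name mm10, a mouse build. Casp12, a related caspase of the inflammatory group named after its values were seen, had 20.7 ± 4.84 CPM (SD, n = 2) in control and 13.0 ± 0.195 CPM (SD, n = 3) in the libraries labelled treated, with control 1 lowest among the controls at 17.3 CPM and no overlap. Its log2 fold change of −0.68 (SE 0.18, edgeR adjusted p = 0.101) was close in size to that of Casp4 and likewise passed on the 6 libraries (edgeR adjusted p = 0.0245). The log2 ratio of Casp4 to Casp1 within a library was 0.72, 1.41 and 1.55 in control. It was 0.80, 0.35 and 0.26 in the libraries labelled treated, and the groups overlapped. The difference of the means was −0.63 (exact permutation p = 0.3) and −1.01 without control 1, and this ratio was chosen after the values were seen.

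Gsdmd, the pore-forming substrate of both caspases, had the narrowest relative range of the 10 genes over the 6 libraries. It was at 12.5, 13.9 and 14.9 CPM in control and at 14.3, 13.2 and 13.3 CPM in the libraries labelled treated. The libraries of the groups were interleaved. The means were 13.5 ± 1.32 CPM (SD, n = 2) and 13.6 ± 0.624 CPM (SD, n = 3). The log2 fold change was 0.0072 (SE 0.14, edgeR adjusted p = 0.979), and −0.016 with DESeq2's size factors, with a 95% interval of the fold from 0.782 to 1.29. Gsdme, a related gasdermin, was at 5.18, 2.64 and 2.14 CPM in control. In the libraries labelled treated it was at 2.53, 3.68 and 3.24 CPM. Control 1 was the highest and control 3 the lowest. Its log2 fold change was −0.26 (SE 0.41, edgeR adjusted p = 0.717), and 0.39 without control 1.

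Il18, whose precursor is released as active cytokine after cleavage by caspase-1, was at 14.9, 11.6 and 9.76 CPM in control. The libraries labelled treated gave 9.99, 7.95 and 5.92 CPM. Treated 1 lay just above control 3, and otherwise the control libraries were higher. The means were 12.8 ± 2.99 CPM (SD, n = 2) and 7.95 ± 2.03 CPM (SD, n = 3). The log2 fold change of −0.69 (SE 0.28) was similar in size to that of Casp4 but did not pass the test under any alternative (edgeR adjusted p = 0.206), and the 95% interval of the fold ran from 0.377 to 1.02. On chromosome 8, Il18 overlaps Bco2 and Tex12 on the other strand. Those genes held 484 and 81 counts over all 6 libraries, and the use of strand in counting is not given in the sources used here.

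Il18bp, a secreted protein that binds and neutralizes the Il18 product, was at 7.44, 4.95 and 5.92 CPM in control. It was at 5.29, 4.94 and 5.18 CPM in the libraries labelled treated. The latter lay within a narrow range, and the lowest control library fell inside it. With the control pair as 1 sample the groups did not overlap, at 6.44 ± 1.42 CPM (SD, n = 2) and 5.14 ± 0.177 CPM (SD, n = 3), with an exact permutation p of 0.1, the smallest possible. The log2 fold change was −0.33 (SE 0.22, edgeR adjusted p = 0.382), and −0.10 without control 1. Within a library, the log2 ratio of Il18 to Il18bp was 0.99, 1.21 and 0.71 in control and 0.90, 0.67 and 0.19 in the libraries labelled treated. The groups overlapped over 6 libraries but not with the control pair as 1 sample. The mean ratio was 0.98 ± 0.02 (SD, n = 2) and 0.59 ± 0.36 (SD, n = 3), a difference of −0.39 on the log2 scale (exact permutation p = 0.2).

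For 6 of the 10 genes, Nlrp3, Nlrc4, Aim2, Pycard, Casp1 and Gsdme, the same 3 libraries held the highest levels: control 1, treated 2 and treated 3. Of all genes tested, 11.6% had these 3 libraries highest. This order was noticed in the values and is not a comparison of study groups. The summed CPM of 10 neutrophil markers had the same 3 libraries highest, with 1149, 188 and 177 CPM in control libraries 1 to 3 and 305, 2957 and 4020 CPM in those labelled treated. S100a9 was the most abundant of these markers, and Ltf was at or under 1 count in every library. Of the 9 tested, 0 passed the edgeR test in either direction, at an unadjusted p under 0.05 or on the 6 libraries. Of all genes tested, 3.70%, 25.4% and 18.1% did. The 4 B cell markers, led by Cd79a, followed the same order, at 38.6, 4.82 and 3.48 CPM in control and 20.3, 53.1 and 81.3 CPM in the libraries labelled treated, and 0 of 4 passed at either threshold. The part of these cell types in the levels of the 6 genes was not tested. In bulk tissue, fewer cells of a type and less RNA per cell cannot be told apart.

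The summed macrophage markers took a different order, which the single markers did not all follow. Of 13 tested, 8 were lower without overlap between the groups over 6 libraries, beside 20.1% of all genes tested. Adgre1 had control 1, treated 2 and treated 3 highest, like the 6 genes above. All 13 tested were fitted lower in the libraries labelled treated, beside 7117 of 15537 genes tested, and their median log2 fold change was −0.89. The edgeR test called 3 of 13 lower (Cd68, Cd14 and Ms4a7), beside 2.57% of all genes tested. At an unadjusted p under 0.05 there were 6, beside 25.4%, and on the 6 libraries 5 passed, beside 18.1%. The summed level of the macrophage markers was 3179, 2162 and 2144 CPM in control and 683, 1870 and 1940 CPM in the libraries labelled treated. Lyz2 was the most abundant and Marco was at 0 counts in all 6 libraries. Lyz2 itself overlapped between the groups, at 1831, 1266 and 1246 CPM in control and 271, 1241 and 1400 CPM in the libraries labelled treated. Casp4 shared with the macrophage sum an order in which every control library lay above every library labelled treated and treated 1 was lowest. The summed T cell and endothelial markers had this order as well, and the part of any of these cell types in the level of Casp4 was not tested. All 4 T cell markers matched were fitted lower as well, with 1 of 4 called (Cd2, the most abundant), beside 2.57% of all genes tested. All 4 had an unadjusted p under 0.05, beside 25.4%, and 3 were called on the 6 libraries, beside 18.1%. Their sum was 14.7, 13.8 and 13.8 CPM in control and 3.99, 4.76 and 5.07 CPM in the libraries labelled treated.

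Levels were also set against the mean log2 CPM of the macrophage markers in the same library. That mean was 6.08, 5.48 and 5.48 in control and 4.23, 4.99 and 4.88 in the libraries labelled treated, a difference of −1.08 (exact permutation p = 0.1). Any gene whose level fell by less than this has a higher relative level by construction, and 95.0% of all genes tested had one, so that all 10 genes did is not a result about them. The difference in relative level ran from 0.33 for Casp4 and 0.39 for Il18 to 1.49 for Aim2. For Casp4 the relative level was −1.09, −0.60 and −0.67 in control and −0.45, −0.57 and −0.57 in the libraries labelled treated (exact permutation p = 0.1). Adding the neutrophil markers to the reference lowers every difference by the same 1.28. The difference then stayed above 0 for Nlrc4, Aim2 and Pycard, at 0.18, 0.21 and 0.0036. For the other genes its sign changed and so depends on the reference chosen.

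**Figure D2:**
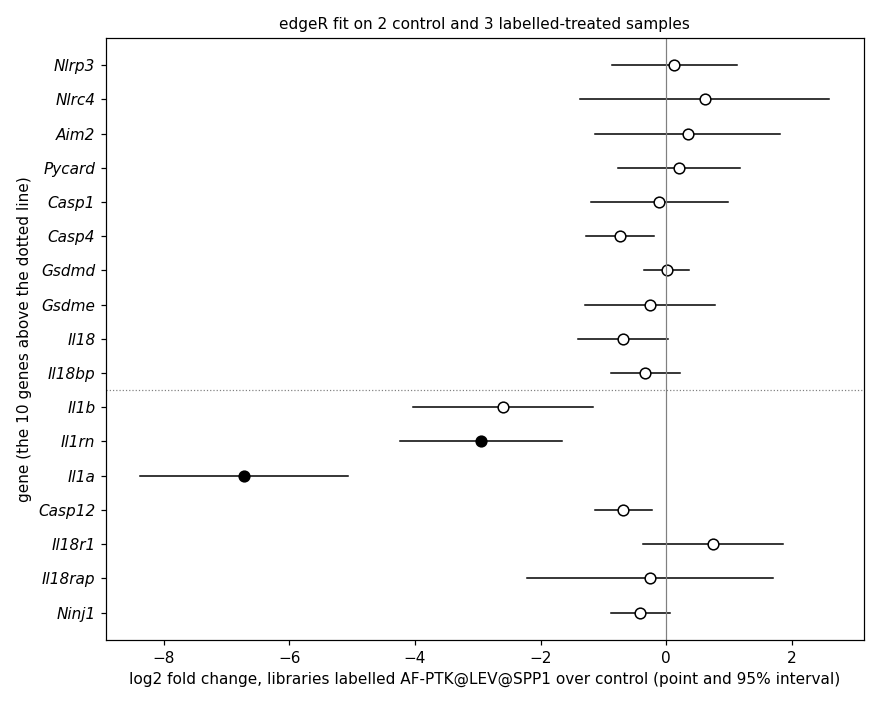
Log2 fold change with control as the denominator (x axis) with 95% intervals from the edgeR fit on distinct samples, for the 10 genes above the dotted line and 7 other genes of the pathway below it (y axis); filled points passed at an adjusted p under 0.05. Intervals of 9 of the 10 genes include 0, that of Casp4 does not, and the filled points are Il1rn and Il1a.

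Of 34 other genes of the pathway, 29 were tested. edgeR called 2 of 29 lower and 0 higher, and 9 of 29 had an unadjusted p under 0.05, beside 3.70% and 25.4% of all genes tested. Their median log2 fold change was −0.14. On the 6 libraries, 5 were called lower and 3 higher, beside 18.1% of all genes in either direction. Nlrp1b, Nlrp6, Nlrp10, Gsdma and Pjvk had too few counts to be tested.

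The called genes were both of the interleukin-1 group. Il1rn, which encodes a secreted antagonist of the interleukin-1 receptor, was at 52.0, 65.4 and 66.7 CPM in control and 3.05, 10.2 and 9.91 CPM in the libraries labelled treated. The groups lay far apart, with a log2 fold change of −2.94 (SE 0.51, edgeR adjusted p = 0.0495). Il1a, an alarmin that signals without cleavage by caspase-1, was counted 188, 182 and 202 times in control and 0, 3 and 2 times in the libraries labelled treated. The pooled control level was 114 times that of the libraries labelled treated, with an exact 95% interval of 48.5 to 352 that covers counting error only (edgeR adjusted p = 0.0213). Neither call held throughout. Without treated 2 or treated 3 the edgeR adjusted p was 0.0733 or 0.136 for Il1a and 0.112 or 0.173 for Il1rn, and for Il1rn it was 0.0950 without control 1. The fold changes themselves did not shrink in these fits, with a log2 fold change of −3.19, −3.15 and −3.11 for Il1rn without treated 2, treated 3 and control 1.

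Il1b, the other cytokine that caspase-1 matures, was at 34.8, 39.2 and 37.0 CPM in control and at 2.00, 8.44 and 7.63 CPM in the libraries labelled treated. Every library labelled treated lay below every control library. Its log2 fold change was −2.61 (SE 0.57), with an edgeR adjusted p of 0.0743 on distinct samples and 0.0187 on the 6 libraries. It also passed with DESeq2 on distinct samples and with edgeR without treated 1 (edgeR adjusted p = 0.0357), while with another library left out the edgeR adjusted p ran from 0.0737 to 0.204. Against Casp1 in the same library, the log2 ratio of Il1b was 0.86, 1.82 and 1.95 in control and −1.90, −0.97 and −1.09 in the libraries labelled treated. The groups did not overlap and the means differed by −2.69 (exact permutation p = 0.1, the smallest possible). Against Il18, the log2 ratio of Il1b was 1.21, 1.74 and 1.91 in control and −2.26, 0.08 and 0.36 in the libraries labelled treated, a difference of −2.12 (exact permutation p = 0.2, because treated 1 lay far below the others), and −1.30 without treated 1. Both ratios were chosen after the values were seen.

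Il18r1, the subunit of the receptor that binds the Il18 product, was at 0.667, 1.16 and 1.16 CPM in control and 1.12, 1.87 and 1.71 CPM in the libraries labelled treated. The groups overlapped, and the log2 fold change was 0.75 (SE 0.44, edgeR adjusted p = 0.340) and 0.41 without control 1. Il18rap, the accessory subunit, was at 12.2, 11.2 and 11.0 CPM in control and 1.94, 14.5 and 13.0 CPM in the libraries labelled treated. Treated 1 stood apart at 33 counts, and the log2 fold change of −0.26 (SE 0.77, edgeR adjusted p = 0.860) became 0.20 without it. Ninj1, whose protein ruptures the plasma membrane late in lytic death, was at 62.9, 65.4 and 61.3 CPM in control and 53.5, 37.2 and 52.3 CPM in the libraries labelled treated. The groups did not overlap, but the log2 fold change of −0.41 (SE 0.18) did not pass the test (edgeR adjusted p = 0.234).

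Other genes are named because the fit on 6 libraries called them, and so were chosen after their values were seen. Pstpip1, which encodes a partner of pyrin, had a log2 fold change of −1.26 (edgeR adjusted p = 0.0907 on distinct samples and 0.0377 on the 6 libraries). Txnip, described as a redox-dependent binding partner of the Nlrp3 product, was at 492, 317 and 319 CPM in control and 1071, 1336 and 948 CPM in the libraries labelled treated, with a log2 fold change of 1.46 (edgeR adjusted p = 0.0604 and 0.0107). P2rx7, an ATP-gated channel upstream of that sensor, had 1.18 (edgeR adjusted p = 0.140 and 0.0415), and Nlrx1, a mitochondrial relative of the sensors, had 0.50 (edgeR adjusted p = 0.0802 and 0.0164). DESeq2 called these genes, with the same signs, and also Nlrp12 as higher.

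Promoters of 7 of the 10 genes were found by symbol among the RefSeq promoters of the rat build GRCr8, each running from 250 bases before to 50 after the gene's start. Those of Nlrc4, Casp4 and Gsdmd were not matched. The promoters of Nlrp3, Aim2, Pycard, Casp1 and Gsdme are shown because these genes had the same 3 libraries highest. Capitals mark matches, on either strand, to AGGAAGT (the core of ETS factors), TGANTCA (AP-1), the interferon-stimulated response element (GAAA, any 2 bases, GAAA), TTCNNNGAA (the STAT element named GAS) or the NF-kB motif. Of all 33469 promoters of this length, 8.41% held the ETS letters, 7.33% AP-1, 3.92% the interferon element, 8.87% GAS and 7.51% NF-kB. The motifs were chosen with the expression values known.
Nlrp3, chr10:44827848-44828147, plus strand: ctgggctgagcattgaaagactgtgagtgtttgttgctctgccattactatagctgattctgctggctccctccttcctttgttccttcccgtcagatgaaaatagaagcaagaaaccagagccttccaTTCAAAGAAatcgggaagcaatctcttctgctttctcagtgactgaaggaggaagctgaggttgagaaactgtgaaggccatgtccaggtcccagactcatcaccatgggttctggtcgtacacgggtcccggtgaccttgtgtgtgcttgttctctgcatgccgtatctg
Aim2, chr13:88398372-88398671, plus strand: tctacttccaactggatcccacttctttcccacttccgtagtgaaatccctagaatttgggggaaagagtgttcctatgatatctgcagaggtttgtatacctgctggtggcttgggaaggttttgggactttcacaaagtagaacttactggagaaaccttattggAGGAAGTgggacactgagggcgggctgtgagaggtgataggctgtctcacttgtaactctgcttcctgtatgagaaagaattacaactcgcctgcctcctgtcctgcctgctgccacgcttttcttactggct
Pycard, chr1:192033370-192033669, minus strand: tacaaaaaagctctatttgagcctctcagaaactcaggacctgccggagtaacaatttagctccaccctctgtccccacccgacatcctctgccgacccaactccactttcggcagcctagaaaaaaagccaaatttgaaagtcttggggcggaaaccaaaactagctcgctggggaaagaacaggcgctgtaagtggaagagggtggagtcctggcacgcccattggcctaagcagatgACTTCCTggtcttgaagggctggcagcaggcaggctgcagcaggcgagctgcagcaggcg
Casp1, chr8:10872580-10872879, plus strand: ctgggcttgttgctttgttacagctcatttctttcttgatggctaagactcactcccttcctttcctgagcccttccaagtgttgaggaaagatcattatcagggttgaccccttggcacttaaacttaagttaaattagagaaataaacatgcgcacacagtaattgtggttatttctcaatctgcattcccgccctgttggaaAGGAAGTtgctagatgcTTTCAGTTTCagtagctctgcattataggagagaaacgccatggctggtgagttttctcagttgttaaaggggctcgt
Gsdme, chr4:80651562-80651861, minus strand: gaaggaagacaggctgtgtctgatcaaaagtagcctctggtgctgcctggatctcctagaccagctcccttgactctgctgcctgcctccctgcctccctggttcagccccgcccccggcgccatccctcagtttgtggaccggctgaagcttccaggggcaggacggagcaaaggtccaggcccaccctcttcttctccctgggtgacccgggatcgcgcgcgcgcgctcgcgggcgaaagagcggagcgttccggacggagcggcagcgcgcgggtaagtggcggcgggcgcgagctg

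The ETS letters were in 3 of the 7 promoters, those of Aim2, Pycard and Casp1. In Casp1 they lay at bases 206 to 212 of the window, and the interferon element lay at bases 223 to 232. Nlrp3 held the GAS letters at bases 130 to 138, and Gsdme held none of the letters searched. Of the promoters not shown, that of Il18bp held the interferon element near its end and that of Il18 held AP-1. None of the 7 held the NF-kB motif. A match is a description of the letters and not evidence of a bound factor.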

How the data were processed

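The authors deposited counts, whole numbers of reads per Ensembl rat gene in each of 6 libraries, without normalization. The submitters' processing notes name FastQC, Trimmomatic, HISAT2, featureCounts and DESeq2 without versions. The treatment of reads shared between genes is not given in the sources used here, and such reads could shift related genes. The 10 genes and the gene lists were chosen with earlier results of these data known. Named are all 10 genes, the other pathway genes that passed the test, Il1b, Il18r1, Il18rap, Ninj1 and Spp1, and further genes where the text says so. Of the pathway genes fixed beforehand, 1 is not reported here and is left out of the counts of those genes.

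Counts were fitted over the whole table with edgeR 4.0.16 in R 4.3.3 (quasi-likelihood test, trimmed mean of M-values, filterByExpr at a minimum count of 10, group as the term), with Benjamini-Hochberg adjustment over all genes tested. The biological coefficient of variation was 0.302. Log2 CPM used a prior count of 2, and 3 counts (0.154 to 0.193 CPM) were taken as the smallest measurable level. Libraries were compared pairwise over genes with at least 20 counts. The code was tested on a single set of simulated counts with 200 genes changed 4-fold. On these the share of false calls was above the threshold for edgeR and limma-voom and far above it for DESeq2. Alternatives were DESeq2 1.42.0, limma-voom in limma 3.58.1, other scalings, filters and thresholds, a replicate block and each library left out. Of the marker genes, Trac, Krt19 and Krt14 matched no gene and were left out.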

Additional observations from a re-analysis of the deposited data

How the results depend on the processing

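Of the 10 genes, those called lower numbered 0 in the edgeR fit on distinct samples and 1 on all 6 libraries or with DESeq2; 0 were called higher under each alternative run. Other pathway genes called lower numbered 2, but 5 on all 6 libraries, 5 with DESeq2 and 4 at an adjusted p under 0.10, and 0 to 3 with 1 library left out; those called higher numbered 0, but 3, 4 and 2. Counting the near-identical pair as separate samples narrows the spread by construction; otherwise the cause was not tested. Correlations of deviations for equal replicate numbers were −0.32, −0.27 and −0.08, which gave no sign that the numbers pair the samples. With control libraries 2 and 3 nearly the same, these values are not independent and cannot exclude a pairing. With the replicate block on 6 libraries, 0 of the 10 genes were called and 2 pathway genes lower; log2 fold changes turned to 0.052 for Casp1, −0.012 for Gsdmd and 0.016 for Gsdme.

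Fold changes near 0 changed sign. Casp1 was 0.043 on all 6 libraries. Gsdmd was −0.015 on all 6 libraries, −0.019 with DESeq2, −0.0036 with limma-voom, −0.016 with DESeq2's size factors and −0.041 without a filter. With 1 library left out, the range was −0.12 to 0.39 for Nlrp3, 0.15 to 1.28 for Nlrc4, 0.18 to 1.23 for Aim2, 0.052 to 0.63 for Pycard, −0.28 to 0.40 for Casp1, −0.097 to 0.040 for Gsdmd, −0.38 to 0.39 for Gsdme, −0.92 to −0.44 for Il18, −0.39 to −0.10 for Il18bp, 0.25 to 0.81 for Spp1, 0.41 to 0.91 for Il18r1, −0.54 to −0.26 for Ninj1 and −0.64 to 0.20 for Il18rap; the highest for Nlrc4, Aim2 and Pycard were without control 1. Leaving out control 1 leaves 1 control sample, assumed to vary like the others. Relative to macrophage and neutrophil markers together, differences turned to −0.16 for Nlrp3, −0.32 for Casp1, −0.95 for Casp4, −0.18 for Gsdmd, −0.37 for Gsdme, −0.89 for Il18 and −0.50 for Il18bp. This change of reference lowers all 10 by the same 1.28 by construction. The difference in the ratio of Il18 to Il18bp ran from −0.55 to −0.19 with 1 library left out, the smallest without treated 3. The cause of the other changes was not tested.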

Other observations

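Markers of other tissues differed between libraries in ways not described above, and their part in the levels of the 10 genes was not tested. The summed CPM of the erythroid markers, led by Hba-a1, was 2321, 3178 and 3268 in control and 2456, 19630 and 13689 in the libraries labelled treated. The muscle markers, led by Acta1, stood at 7287 CPM in treated 2 and at 654 to 1788 CPM in the other 5 libraries. The adipocyte markers, led by Fabp4, stood at 479, 86.1 and 89.0 CPM in control and 1044, 1649 and 767 CPM in the libraries labelled treated. edgeR called 0 of 4 erythroid, 0 of 3 muscle and 0 of 4 adipocyte markers, beside 3.70% of all genes tested. At an unadjusted p under 0.05 there were 1, 0 and 2, beside 25.4%. The endothelial markers, led by Pecam1, stood at 340, 448 and 443 CPM in control and 243, 269 and 277 CPM in the libraries labelled treated. Of these, 0 of 3 were called on distinct samples, beside 3.70% of all genes tested. All 3 had an unadjusted p under 0.05, beside 25.4%, and all 3 were called on the 6 libraries, beside 18.1%. Skin epithelium markers summed to 3.97 to 7.06 CPM. Of the disc markers, Tbxt, a notochord gene, was at 142, 17.4 and 17.3 CPM in control and 756, 308 and 332 CPM in the libraries labelled treated. Its log2 fold change was 2.54 (edgeR adjusted p = 0.195), and 0 of 7 disc markers were called. On the 6 libraries its edgeR adjusted p was 0.0789. With the replicate block on 6 libraries Tbxt was called (log2 fold change 3.61, edgeR adjusted p = 0.0435). That fit called 307 genes higher and 434 lower of 15042 tested, and it counts the near-identical control pair as separate samples.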
